A study of Mus musculus with 19 samples.

Results

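Pax genes encode transcription factors that bind DNA through the paired domain, whose coding sequence is called the paired box. The mouse family members Pax1 to Pax9 were found by gene name, and all 9 were present among the 54532 genes of the deposited tables. The series measured total RNA in 19 tissues, with 1 library for each, from C57BL/6J mice; the labels call the animals male, give their age as 8 weeks and their food as chow. The labels give no other allele or treatment, and each tissue is a group of 1. Values of 13 tissues (aorta, eye, heart, kidney, liver, parathyroid, stomach, testis, thymus, WAT, brain, colon and skeletal muscle) came as FPKM, that is, reads per kilobase of mean transcript length and of library depth. WAT is epididymal fat and the skeletal muscle is gastrocnemius. The other 6 tissues (bone, brown adipose tissue or BAT, intestine, spleen, lung and skin) came as raw counts and were put on the same FPKM scale. The tables were normalized separately by their authors, so levels set across them rest on this conversion. With 1 library per tissue there is no spread between animals and no test, and all intervals are 95% intervals that cover counting error only.

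Assigned reads ranged from 11135276 in colon to 17263334 in parathyroid. Of the libraries, 4 carried transcripts of both or of the other sex. Xist, which coats the silenced X of female cells, reached 90.9 FPKM in kidney and 97.5 in eye, where 4 Y-linked genes together had 3 reads in each. Aorta had Xist at 22.1 FPKM and parathyroid at 59.7 FPKM beside Y-linked levels of 80.5 and 35.7 FPKM. In the other 15 libraries Xist was at or below 0.0683 FPKM. Kidney and eye therefore go against their label. The Pax results that rest on them, and the counts of the lists led by them, are given with and without them. Other list counts that moved without them are given with their lists or in the section on processing. The parathyroid library held the thyroid gland's thyroglobulin Tg at 57706 FPKM and parathyroid hormone Pth at 7211 FPKM. Aorta held Tg at 5505 and Pth at 621 FPKM. The WAT library held Crisp1, a secretory product of the epididymis, at 11117 FPKM. In these bulk samples fewer cells of a type and less RNA per cell cannot be told apart.

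The family acts mainly in the embryo, where its members pattern organs, and several stay on in the adult cell types they specify. By protein structure and descent the members fall into subgroups, Pax1 with Pax9, Pax2 with Pax5 and Pax8, Pax3 with Pax7, and Pax4 with Pax6. Pax8 is a master regulator of the thyroid and acts with Pax2 in the kidney and the Wolffian duct, from which the epididymis forms. Pax5 fixes the B cell fate, Pax6 the eye, and Pax7 marks muscle satellite cells.

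The paired box is shown first because it is what makes these genes a family and because it carries their differences as well as their likeness. A stretch of 72 coding bases near the start of the paired box is printed for each gene, 5′ to 3′ on the coding strand, from the GENCODE M21 transcripts (GRCm38), with each stretch inside 1 exon. Capitals mark the 32 bases that are identical in all 9 genes.
Pax1 (chr2:147365750-147365821, plus strand): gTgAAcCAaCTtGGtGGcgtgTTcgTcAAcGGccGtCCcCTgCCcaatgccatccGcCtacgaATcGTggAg
Pax9 (chr12:56696591-56696662, plus strand): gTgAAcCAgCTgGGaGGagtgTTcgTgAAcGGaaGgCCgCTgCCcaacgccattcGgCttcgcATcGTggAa
Pax2 (chr19:44760889-44760960, plus strand): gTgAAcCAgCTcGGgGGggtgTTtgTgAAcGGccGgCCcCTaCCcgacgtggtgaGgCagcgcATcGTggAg
Pax5 (chr4:44697605-44697676, minus strand): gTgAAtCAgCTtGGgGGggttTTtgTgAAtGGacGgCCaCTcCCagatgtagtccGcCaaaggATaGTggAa
Pax8 (chr2:24444649-24444720, minus strand): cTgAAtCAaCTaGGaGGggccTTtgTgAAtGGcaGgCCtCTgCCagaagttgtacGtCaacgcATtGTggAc
Pax3 (chr1:78195389-78195460, minus strand): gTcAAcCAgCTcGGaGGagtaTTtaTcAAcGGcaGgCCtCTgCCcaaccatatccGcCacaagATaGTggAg
Pax7 (chr4:139830276-139830347, minus strand): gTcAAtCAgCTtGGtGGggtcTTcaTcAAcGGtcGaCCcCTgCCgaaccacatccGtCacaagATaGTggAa
Pax4 (chr6:28446684-28446755, minus strand): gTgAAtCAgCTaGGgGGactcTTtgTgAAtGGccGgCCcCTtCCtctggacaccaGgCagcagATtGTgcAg
Pax6 (chr2:105683839-105683910, plus strand): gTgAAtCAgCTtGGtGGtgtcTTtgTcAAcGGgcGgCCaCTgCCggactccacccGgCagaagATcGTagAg

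Over the ungapped block of 141 bases that holds this stretch, 49 bases were identical in all 9 genes. Base identity between members ranged from 55.3% to 83.7% over the 36 pairs. Pax3 and Pax7 were the closest at 83.7%, followed by Pax1 and Pax9 at 77.3%, Pax5 and Pax8 at 73.8% and Pax2 and Pax5 at 73.0%. Pax4 and Pax6 shared 68.1%. The longest run that any pair shared without a difference was 37 bases, between Pax3 and Pax6. This run was sought over whole transcripts, at any position, so it need not lie in this block. How the authors' counting treated a read that fits several genes is not given in the sources used here.

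Each of the 9 genes had its highest level in 1 of 7 tissues. Thymus led for Pax1, WAT for Pax2, brain for Pax3, eye for Pax4 and Pax6, spleen for Pax5, skeletal muscle for Pax7, and parathyroid for Pax8 and Pax9. The span of levels was wide. Pax8 reached 290 FPKM and Pax5 279 FPKM in their leading tissue, while Pax4 (0.594 FPKM) and Pax7 (0.910 FPKM) stayed under 1 FPKM in every library. Of the 7 genes that reached 1 FPKM, 3 were at least 4-fold above the next tissue after 0.1 FPKM was added to each value, namely Pax1 in thymus, Pax5 in spleen and Pax6 in eye. Of the 27939 genes that reached 1 FPKM anywhere, 28.3% passed the same rule, as did 22.4% of protein-coding genes and 14.9% of genes with a transcription factor family in the deposited tables. Pax9, at a ratio of 3.89, lay just under the threshold and Pax6, at 5.74, was the nearest above it. The median log2 ratio of the highest to the next tissue was 1.96 over the 7 Pax genes and 0.84 over all genes, and 2 members under 1 FPKM are not in the first number. Within the 13-tissue table alone, Pax1 and Pax6 passed, against 32.4% of all genes, 25.1% of protein-coding genes and 16.4% of transcription factor genes. Spleen is not in that table, and there Pax5 was highest in testis, 2.92-fold above colon.

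**Figure D1:**
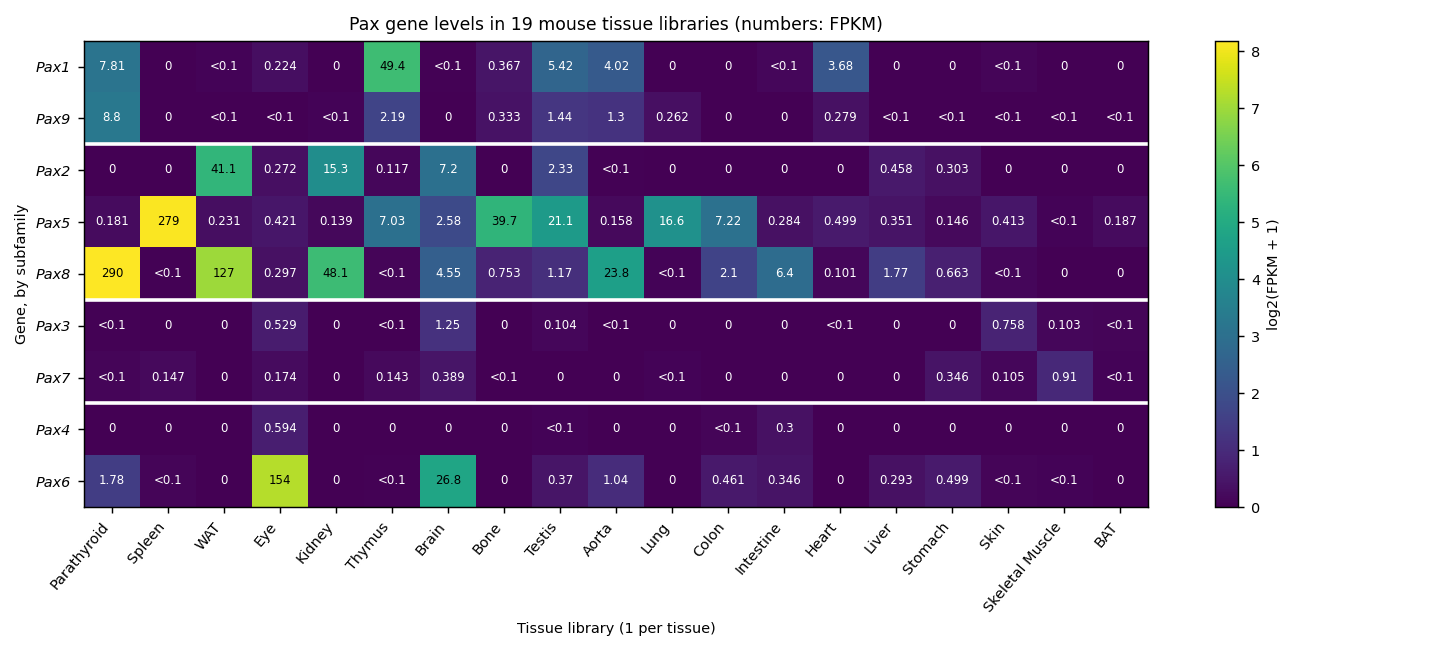
FPKM of the 9 Pax genes (rows, grouped by subfamily between the white lines) in 19 tissue libraries (columns, ordered by summed Pax level), with colour giving log2(FPKM + 1). The columns with the brightest cells are parathyroid (Pax8, 290), spleen (Pax5, 279), eye (Pax6, 154) and WAT (Pax8, 127), and the columns of stomach, skin, skeletal muscle and BAT hold no value of 1 FPKM or more.

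Read by tissue, several libraries were dominated by a single family member. Pax5 made up 99.9% of the summed Pax FPKM of spleen (279), Pax6 98.4% of that of eye (157), Pax8 93.9% of that of parathyroid (308) and Pax1 83.7% of that of thymus (59.0). By the number of Pax genes at 1 FPKM or more, brain and testis led with 5 each, at summed levels of 42.8 and 31.995 FPKM. By the share of the leading gene, stomach was the lowest at 33.6%, at a summed level of only 1.97 FPKM. Eye was the tissue in which all 9 genes had reads, although only Pax6 passed 1 FPKM there. Stomach, skin, skeletal muscle and BAT had no Pax gene at 1 FPKM, with BAT the lowest at a summed 0.338 FPKM. Marker lists of cell types are described below by how many members were highest in a tissue and how many passed the 4-fold rule, beside 28.3% of all genes that passed it and their median log2 ratio of 0.84. Without the eye library 8131 of 27584 genes passed it, and without the kidney library 7981 of 27825. Of all genes, 1.99% were highest in parathyroid, 3.24% in kidney, 4.17% in WAT, 8.67% in spleen and 7.57% in thymus. The shares were 4.54% in eye, 9.94% in brain and 2.34% in skeletal muscle.

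Pax8 (ENSMUSG00000026976, chr2:24420560-24475599, minus strand, GRCm38), the thyroid and kidney factor, was the most abundant family member. Its level was 290 FPKM in parathyroid (7070 reads), 127 in WAT (3024 reads), 48.1 in kidney (1149 reads) and 23.8 in aorta (499 reads). Parathyroid lay 2.28-fold above WAT (interval 2.19 to 2.39), WAT 2.64-fold above kidney (2.46 to 2.82) and kidney 2.02-fold above aorta (1.82 to 2.25), so these 4 levels are separate beyond counting error. A lower tier followed with intestine at 6.40 FPKM, brain at 4.55, colon at 2.10, liver at 1.77 and testis at 1.17 FPKM. Colon did not differ from liver, or liver from testis, beyond counting error. The remaining 10 libraries were under 1 FPKM, and skeletal muscle and BAT had 0 reads, which allows up to 0.124 and 0.127 FPKM at a floor of 3 reads. Gm13415, which overlaps Pax8 on the opposite strand, was also highest in parathyroid, at 6.24 FPKM (218 reads).

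Thyroid genes led in the same library as Pax8. Of a list of 12 genes of thyroid follicular cells, the hormone-making cells of the thyroid, 8 were highest in that library and 5 of the 12 passed the 4-fold rule, with a median log2 ratio of 1.59. Slc5a5, Duox2, Duoxa2 and Slc26a4 of the list were highest in other libraries. Of the 5 that passed, 4 did so in parathyroid. The thyroid transcription factors Nkx2-1 and Foxe1, which act together with Pax8, were at 194 and 150 FPKM there. The parathyroid list had 4 of its 6 members highest there, including Gcm2, the factor that specifies parathyroid cells, at 24.3 FPKM. Its Gata3 and Tbx1 were highest elsewhere, and 2 of the 3 members that passed the rule did so in parathyroid. The 8 thyroid markers highest in parathyroid summed to 60357 FPKM there and to 5733 FPKM in aorta. These and the later marker shares use list members that were highest in the source library, so that a share under 100% there is fixed by the choice. As a share of the parathyroid level, aorta stood at 7.46% to 11.2% for these markers (median 9.12%) and at 8.21% for Pax8 (7.48% to 8.99%). The 4 parathyroid markers stood at 8.62% to 9.70%. Pax8 in aorta thus lay within the range of the thyroid markers, and the part of thyroid tissue in the Pax8 level of aorta was not tested.

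Pax2 (ENSMUSG00000004231, chr19:44756045-44837871, plus strand), which acts in the developing kidney, genital ducts, midbrain and optic nerve, was highest in WAT at 41.1 FPKM (2141 reads). Kidney followed at 15.3 FPKM (797 reads), brain at 7.20 (377 reads) and testis at 2.33 (122 reads). Each of these levels exceeded the next beyond counting error, with WAT 2.69-fold above kidney (2.48 to 2.92) and kidney 2.12-fold above brain (1.88 to 2.41). Liver (0.458 FPKM), stomach (0.303), eye (0.272) and thymus (0.117) came next, and no neighbours among these differed beyond counting error. Aorta had 2 reads and the other 10 libraries, parathyroid among them, had none, with floors of 0.0563 to 0.0872 FPKM. Pax2 was thus at 0 reads in the library where Pax8 was highest. Without the kidney library, whose sex markers go against its label, WAT was 5.71-fold above brain. The authors' deposited kidney mean, made of 3 kidney libraries, was 17.2 FPKM for Pax2 and 47.0 FPKM for Pax8, and the mean of the other 2 libraries computed from it was 1.19 and 0.966 times the level in the library used here.

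In WAT, Pax2 stood at 269% of its kidney level and Pax8 at 264%. Of 12 kidney and Wolffian duct genes, 9 were highest in kidney and 5 passed the 4-fold rule, with a median log2 ratio of 1.70. Without the kidney library, 4 of the 12 were highest in liver and 7 passed. The 9 summed to 4456 FPKM in kidney and 130 FPKM in WAT, with a median share of 0.113%. Their lower level in WAT is fixed by their choice, and its size is a description. Uromodulin (Umod), made by the thick ascending limb, was at 2297 FPKM in kidney and 1.996 in WAT, and the nephron factors Lhx1 and Emx1 were at 0 in WAT. Emx2, needed for the urogenital ducts, was higher in WAT (49.0 FPKM) than in kidney (33.4 FPKM). The other 2 list members were Wt1, at 10.4 FPKM in kidney and 4.87 in WAT, and Cdh6, at 4.72 and 0.333 FPKM. The epididymis list had 6 of 10 members highest in WAT and 6 of 10 passing the 4-fold rule, with a median log2 ratio of 5.57. Of the 6 that passed, 5 did so in WAT. Its Adam7, Lcn5 and Lcn12 were at 1753, 3436 and 104 FPKM in WAT. Cst8 of the same list was highest in testis, at 299 FPKM, and was at 1.45 FPKM in WAT. The part of epididymal tissue in the Pax2 and Pax8 levels of WAT was not tested.

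The low levels of both genes in liver and stomach were set beside the same markers. In liver, Pax2 stood at 3.001% of its kidney level (1.87% to 4.58%) and Pax8 at 3.69% (2.61% to 5.08%). The 9 kidney markers stood there at 1.89% to 17.4% (median 4.40%), with Umod at 141 FPKM. In stomach, Pax2 stood at 0.738% of its WAT level and Pax8 at 0.523%, with 4 epididymis markers at 0.464% to 0.697%. In testis, Pax2 stood at 5.68% of the WAT level (4.69% to 6.82%) and Pax8 at 0.923% (0.612% to 1.34%). Both lay above the same 4 markers, which stood at 0% to 0.271% with Lcn5 at 0. These 4 were kept for being highest in WAT, which favours low shares in testis. Cst8 of the list, left out by that choice, was at 299 FPKM in testis and 1.45 in WAT. Pax8 in intestine and brain was not set beside markers. An antisense gene within Pax2, 1700039E22Rik, had 20 reads in testis. These pairs of libraries were chosen after the values were seen, and the part of carried tissue was not tested.

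Pax5 (ENSMUSG00000014030, chr4:44524757-44710487, minus strand), the factor that commits lymphoid progenitors to the B lineage, had reads in all 19 libraries. Spleen led with 279 FPKM (5783 reads), 7.03-fold above bone (6.53 to 7.58) at 39.7 FPKM (812 reads). Testis was at 21.1 FPKM (458 reads), lung at 16.6 (318 reads), colon at 7.22 (103 reads), thymus at 7.03 (150 reads) and brain at 2.58 (56 reads). Colon and thymus did not differ beyond counting error, and each of the other steps in this order did. The 12 lower libraries lay between 0.0456 FPKM in skeletal muscle and 0.499 FPKM in heart, with at most 9 reads each.

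B cell markers were set beside this order. Of 14 B lineage genes, 10 were highest in spleen and 11 passed the 4-fold rule, with a median log2 ratio of 3.32. Of the 11 that passed, 10 did so in spleen. Cd79a, a signalling chain of the B cell receptor, was at 444 FPKM in spleen, 67.6 in bone and 29.3 in lung. The 10 markers highest in spleen summed to 2802 FPKM there, 272 in bone, 164 in lung, 137 in colon, 100.3 in thymus and 3.57 in testis. As a share of spleen, the markers of lung ranged from 1.67% to 7.47% and Pax5 was at 5.95% (5.29% to 6.66%). In colon and thymus, Pax5 was at 2.59% and 2.52%, with marker medians of 4.21% and 3.45%. In bone, Pax5 was at 14.2% with a marker median of 7.50%. The surrogate light chain gene Igll1, made by immature B cells of the marrow, was at 9.18 FPKM in bone and had 0.196 FPKM or less elsewhere. Of the 4 list members not highest in spleen, the precursor B cell gene Vpreb3 was at 32.2 FPKM in bone and 31.1 in spleen, and Vpreb1 at 18.5 in bone and 1.99 in spleen. Ebf1, a B cell factor that other cells also express, was highest in aorta at 38.4 FPKM, with 33.3 in spleen and 21.9 in WAT, so it did not share the order of Pax5. The part of B cell number in these levels was not tested.

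In testis and brain Pax5 lay above the 10 markers highest in spleen. Pax5 in testis stood at 7.56% of spleen (6.86% to 8.32%) where the 10 markers stood at 0.0226% to 0.323%, and in brain at 0.923% (0.696% to 1.20%) where 4 of the 10 markers were at 0 and the highest was at 0.142%. The 10 were kept for being highest in spleen, which favours low shares elsewhere. The 4 left-out members were less uniform. Vpreb3 was at 1.31 FPKM in testis and 0 in brain (31.1 in spleen), and Vpreb1 at 0.801 and 1.80 (1.99). Ebf1 was at 1.20 and 16.7 (33.3), and Igll1 at 0 in each. Vpreb1 in testis and brain, and Ebf1 in brain, thus stood at larger shares of spleen than Pax5. Vpreb3 in both, and Ebf1 in testis, stood at smaller shares. Gm12462, an antisense gene inside Pax5 (chr4:44664415-44685347), was at 20.7 FPKM in testis (1070 reads) and had at most 8 reads in any other library. The gene 4930517J16Rik, annotated on the same opposite strand, was at 15.5 FPKM in testis (411 reads). Whether the authors counted by strand is not given in the sources used here, so reads of Pax5 and of these genes in testis cannot be told apart. Gm12462 had 7 reads in brain.

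Pax1 (ENSMUSG00000037034, chr2:147361925-147393295, plus strand) acts in the pharyngeal pouches that form the thymus and parathyroid and in the sclerotome that forms the vertebrae. Thymus was highest at 49.4 FPKM (1542 reads), 6.32-fold above parathyroid (5.53 to 7.25) at 7.81 FPKM (253 reads). Testis followed at 5.42 FPKM (172 reads), aorta at 4.02 (112 reads) and heart at 3.68 (97 reads). Under median-of-ratios scaling testis, not parathyroid, came after thymus, which then lay 4.66-fold above it. Aorta and heart did not differ beyond counting error, and heart lay 10.01-fold above bone at 0.367 FPKM (11 reads). Eye had 7 reads, 4 libraries had 1 to 3, and 8 libraries had none. AI646519, an antisense gene that overlaps the start of Pax1, was also highest in thymus, at 8.58 FPKM (71 reads).

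Pax9 (ENSMUSG00000001497, chr12:56691767-56712822, plus strand), its closest relative, is needed for the pharyngeal pouch derivatives, teeth and palate, and had the reverse order of the leading tissues. Parathyroid was highest at 8.80 FPKM (542 reads), 4.02-fold above thymus (3.31 to 4.91) at 2.19 FPKM (130 reads). Testis at 1.44 FPKM (87 reads) and aorta at 1.30 FPKM (69 reads) followed and did not differ from each other beyond counting error. Under median-of-ratios scaling testis came before thymus, with parathyroid 3.65-fold above it. Bone (0.333 FPKM), heart (0.279) and lung (0.262) formed a lower level, the other 8 libraries with reads had 1 to 3 each, and 4 had none. Slc25a21, a mitochondrial carrier gene that overlaps the end of Pax9 on the opposite strand, was at 19.2 FPKM in bone, its highest library. The tissues in which both genes reached 1 FPKM were the same 4, namely thymus, parathyroid, testis and aorta.

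Thymic epithelium, the stromal tissue in which Pax1 is known, was followed by 8 genes, of which 6 were highest in thymus and 3 passed the 4-fold rule, with a median log2 ratio of 1.40. Foxn1, the factor that specifies this epithelium, was at 5.59 FPKM in thymus and the thymoproteasome subunit Psmb11 at 59.7 FPKM. In heart, Pax1 stood at 7.45% of its thymus level (6.00% to 9.15%), Pax9 at 12.8% (6.78% to 22.2%), and the 6 markers at 5.54% to 15.1% (median 7.49%, summed 94.3 of 1135 FPKM). Heart thus held Pax1 at the share of the thymic markers, and their part in it was not tested. In aorta, by contrast, Pax1 stood at 8.15% of thymus where the markers stood at 0% to 4.36% (median 0.559%, summed 5.67 FPKM) and Aire was at 0. In testis, Pax1 was at 10.97% and Pax9 at 65.8% with a marker median of 1.23%. In parathyroid, Pax1 was at 15.8% and Pax9 at 402%, with markers from 1.85% (Psmb11) to 30.6% (Foxn1). Set against parathyroid instead, aorta stood at 51.5% for Pax1 (40.9% to 64.6%) and 14.8% for Pax9 (11.4% to 19.1%), both above the highest thyroid marker at 11.2%.

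Pax6 (ENSMUSG00000027168, chr2:105668900-105697364, plus strand), which directs development of the eye, forebrain and pancreatic islets, was highest in eye at 154 FPKM (4512 reads, 82.8% of all its reads). Brain followed at 26.8 FPKM (798 reads), with eye 5.76-fold above it (5.34 to 6.21). Parathyroid was at 1.78 FPKM (54 reads) and aorta at 1.04 FPKM (27 reads), and each was separate from the next beyond counting error. Stomach (0.499 FPKM), colon (0.461), testis (0.370), intestine (0.346) and liver (0.293) had 8 to 14 reads each and did not differ between neighbours beyond counting error. Skin, spleen, skeletal muscle and thymus had 1 or 2 reads. Heart, kidney, WAT, bone, BAT and lung had 0 reads, with floors of 0.101 to 0.122 FPKM. Without the eye library, brain led 15.04-fold above parathyroid.

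The eye list had 15 of 16 members highest in eye and 12 passing the 4-fold rule, and its median log2 ratio was 6.30. Without the eye library, 10 of the 16 were highest in parathyroid and 4 passed, beside 8131 of 27584 among all genes. The lens crystallin Cryaa was at 7552 FPKM and the photoreceptor factor Otx2 at 103. Pax6 in parathyroid stood at 1.16% of eye (0.866% to 1.51%), with the 15 markers at 0% to 8.76% (median 0.871%), Foxe3 being at 0. In aorta it stood at 0.672% (0.442% to 0.979%), with the markers at 0.249% to 1.31% (median 0.624%). Cryaa itself was at 60.2 FPKM in parathyroid and 47.1 in aorta and at 1.41 FPKM or less in the other 16 libraries. The low Pax6 of these libraries lay at the share of the eye markers, whose part in it was not tested. In brain, Pax6 was at 17.4% of eye while 7 of the 15 eye markers were at 0. Of 10 genes of the cerebellum, where granule neurons keep Pax6, 7 were highest in brain and 6 passed the 4-fold rule, with a median log2 ratio of 2.98. The granule cell receptor subunit Gabra6 was at 100.1 FPKM in brain. The members highest elsewhere were Atoh1, Neurod1 and Tfap2b. Atoh1 was at 24.9 FPKM in colon and had 0 reads in brain. Neurod1 was at 70.4 FPKM in eye and 59.0 in brain, and Tfap2b at 70.1 in WAT and 9.78 in brain. Pax6os1, an antisense gene at the Pax6 start, was at 4.59 FPKM in eye (79 reads) and 0.571 in brain (10 reads).

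Pax4 (ENSMUSG00000029706, chr6:28442334-28449353, minus strand), a repressor needed for islet beta cells and gut endocrine cells and also found in photoreceptors, had 17 reads in the whole series. Eye held 10 of them (0.594 FPKM, interval 0.285 to 1.09), intestine 5 (0.300 FPKM, 0.0976 to 0.701), and colon and testis 1 each. Eye and intestine did not differ beyond counting error, with a ratio of 1.98 (0.616 to 7.37). Without the eye library, intestine led colon 3.38-fold (0.378 to 159.8), which rests on 5 reads against 1. The 15 other libraries had none, which allows up to 0.211 FPKM in heart, the shallowest of them for this gene. Pancreas was not among the tissues. In the gut the endocrine progenitor factor Neurog3 was at 1.36 FPKM in intestine and 0.482 in colon, and Gcg, the glucagon and GLP-1 precursor, was at 23.96 and 53.07 FPKM. Over the list of 14 endocrine genes, 13 reached 1 FPKM, 3 passed the 4-fold rule and the median log2 ratio was 1.32. Eye led for 3 of the 14, among them Isl1 at 28.3 FPKM, and 0 of the 14 passed in eye. Without the eye library, parathyroid led for 4 and 3 passed. Other members were highest in parathyroid (Chga at 7009 and Nkx2-2 at 30.2 FPKM), stomach (Sst at 542) and skeletal muscle (Mafa at 38.6). Ins1 had no reads in any library.

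Pax3 (ENSMUSG00000004872, chr1:78101267-78197134, minus strand), the factor of neural crest, melanocyte and early muscle precursors, was low throughout. Brain was highest at 1.25 FPKM (72 reads), 1.64-fold above skin (1.10 to 2.49) at 0.758 FPKM (39 reads). Eye followed at 0.529 FPKM (30 reads) and did not differ from skin beyond counting error. Testis and skeletal muscle had 6 reads each, BAT 4, the other 4 libraries with reads 1 or 2, and 9 libraries had none, with floors of 0.0522 to 0.0791 FPKM. The melanocyte and Schwann cell list had 6 of 11 members highest in eye and 6 passing the 4-fold rule, with a median log2 ratio of 3.31. Of the 6 that passed, 5 did so in eye. Without the eye library, 5 were highest in skin and 2 passed. Its tyrosinase gene Tyr was at 18.5 FPKM in eye and 0.313 in skin. Brain, skin and eye thus held most of the Pax3 reads, and which of their cells hold it was not tested.

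Pax7 (ENSMUSG00000028736, chr4:139737062-139833528, minus strand), which maintains muscle satellite cells, was highest in skeletal muscle at 0.910 FPKM (59 reads), 2.34-fold above brain (1.44 to 3.90) at 0.389 FPKM (25 reads). Stomach at 0.346 FPKM (21 reads) and eye at 0.174 (11 reads) followed, and from brain downward no neighbours differed beyond counting error. Under both other scalings stomach came before brain. Spleen and thymus had 9 reads each, 5 libraries had 1 to 6, and 8 had none. Of 10 muscle stem cell and myogenic genes, 5 were highest in skeletal muscle and 0 passed the 4-fold rule, with a median log2 ratio of 1.04. The satellite cell factor Myf5 was at 0.618 FPKM (22 reads) in skeletal muscle, under 1 FPKM like Pax7, while the fibre factor Myf6 was at 60.2 FPKM. In brain Pax7 was at 42.7% of its muscle level (25.6% to 69.3%). Of the 4 markers set beside it, Myf6 was at 0, Des at 0.126%, Myod1 at 0.741% and Chodl at 72.2%. Without the eye library, 6 of the 10 were highest in skeletal muscle and 1 passed.

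**Figure D2:**
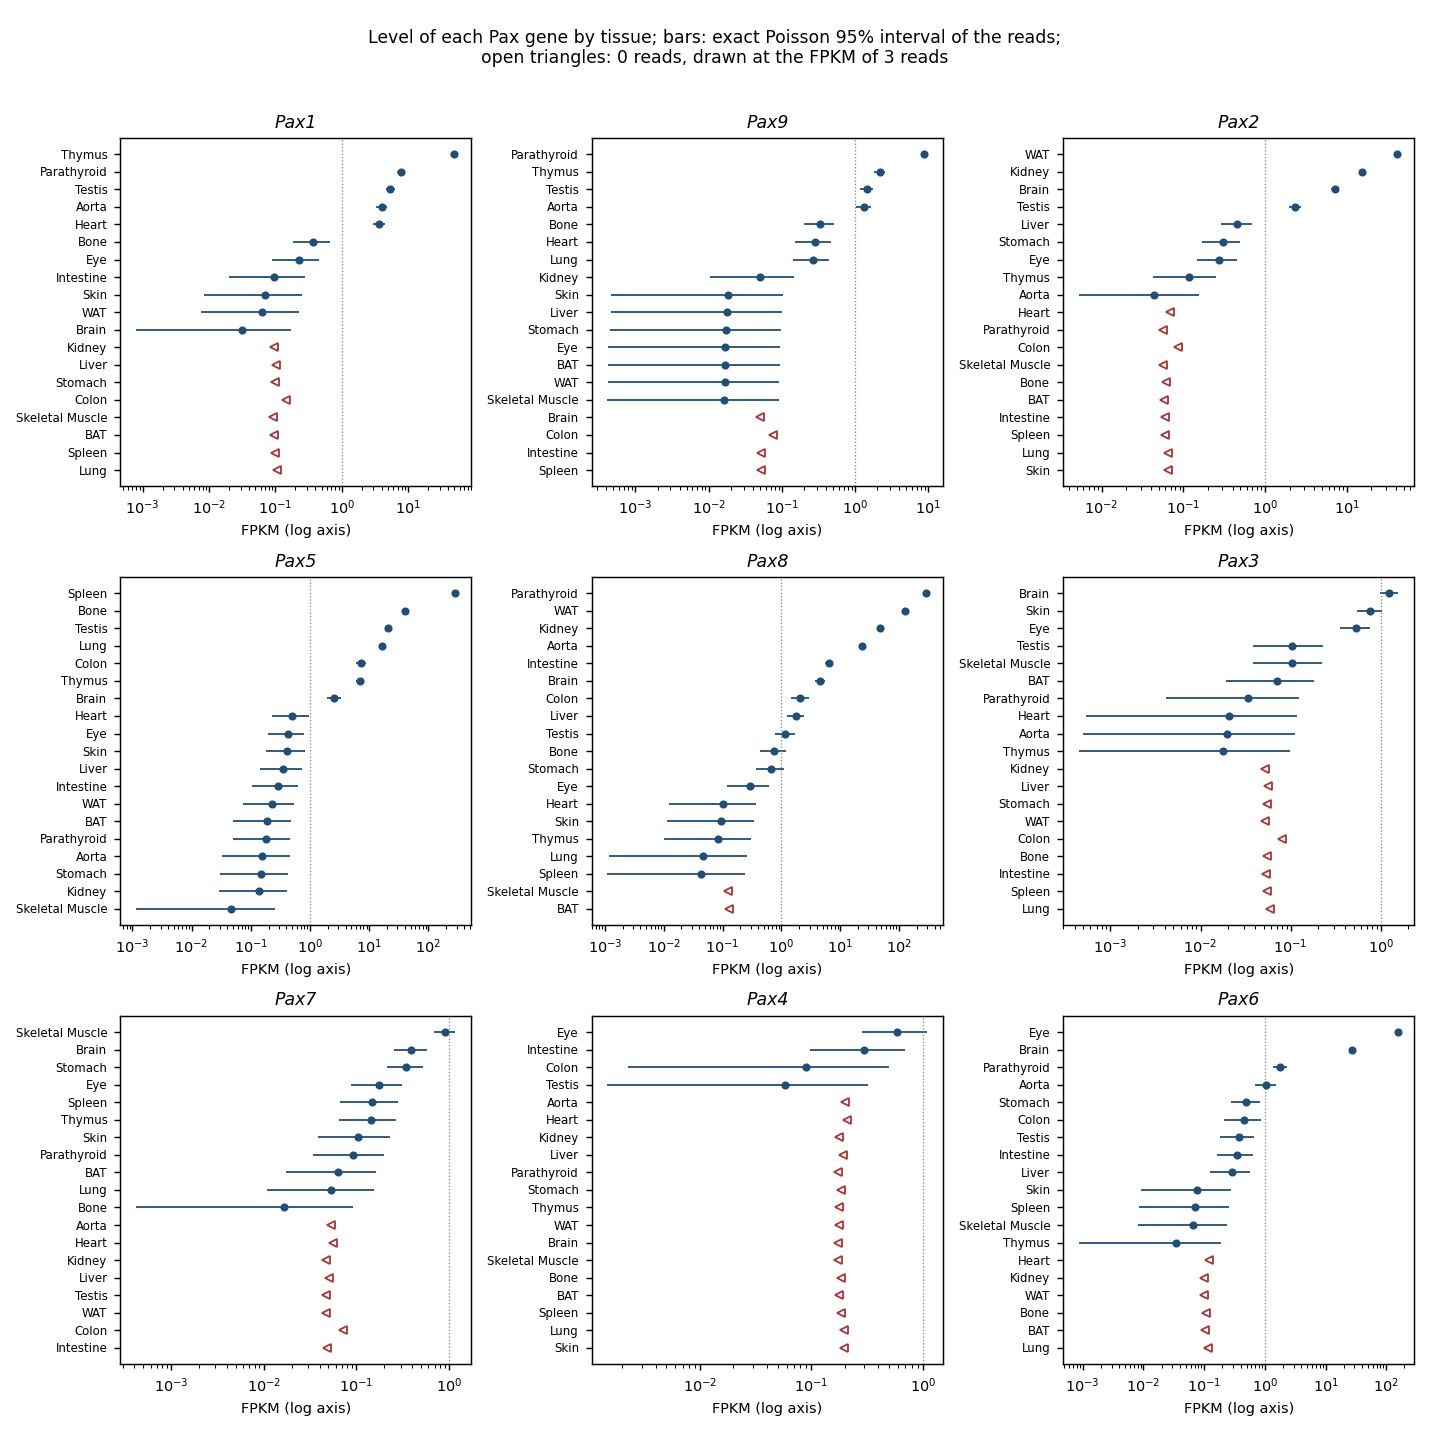
FPKM (log axis) of each Pax gene in 19 tissue libraries, ordered from highest to lowest, with exact Poisson 95% intervals on the reads. Open triangles stand for 0 reads and are drawn at the level of 3 reads, and the dotted line is 1 FPKM. The leading points of Pax1, Pax2, Pax5, Pax6 and Pax8 have intervals no wider than the symbols, whereas the 10 and 5 reads of Pax4 in eye and intestine have intervals that overlap.

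**Figure D3:**
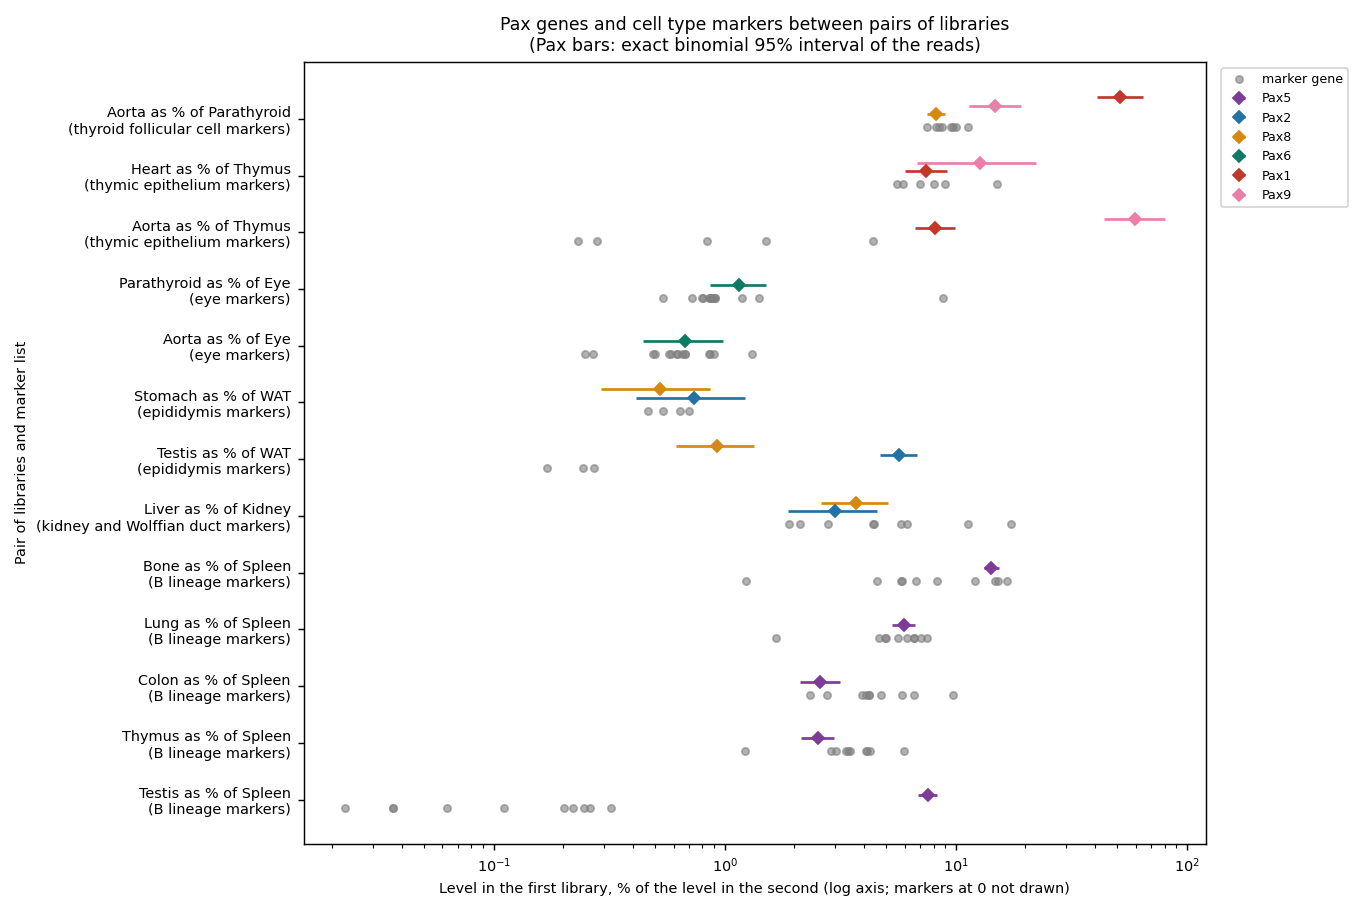
Level in a first library as a percentage of the level in a second (log axis) for 13 pairs of libraries. Grey points are single marker genes of the list named on the axis, and diamonds are Pax genes with exact binomial 95% intervals. Pax8 in aorta and Pax6 in aorta sit among the markers. Pax5 in testis (7.56% of spleen) lies to the right of the 10 B lineage markers chosen as highest in spleen (at most 0.323%).

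Across the 19 libraries, pairs of members were compared by Pearson's r of log2(FPKM + 1), given as a description without a p since all points share libraries and many lie at 0. The value was 0.79 for Pax1 and Pax9, 0.56 for Pax2 and Pax8, 0.35 for Pax3 and Pax7, and 0.68 for Pax4 and Pax6. Values with Pax3, Pax4 or Pax7 rest on few reads. Pax4 had 17 reads in all, 10 of them in eye, where Pax6 was also highest. Pax3 and Pax7 had 72 and 59 reads in their highest library. Pax2 and Pax5 gave −0.17 and Pax5 and Pax8 −0.36. Close sequence over the block of 141 bases did not go with a shared order in each case. Pax3 and Pax7, the closest by base identity in that block at 83.7%, led in different tissues, and Pax3 with Pax6, at 63.1% identity, gave 0.67.

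**Figure D4:**
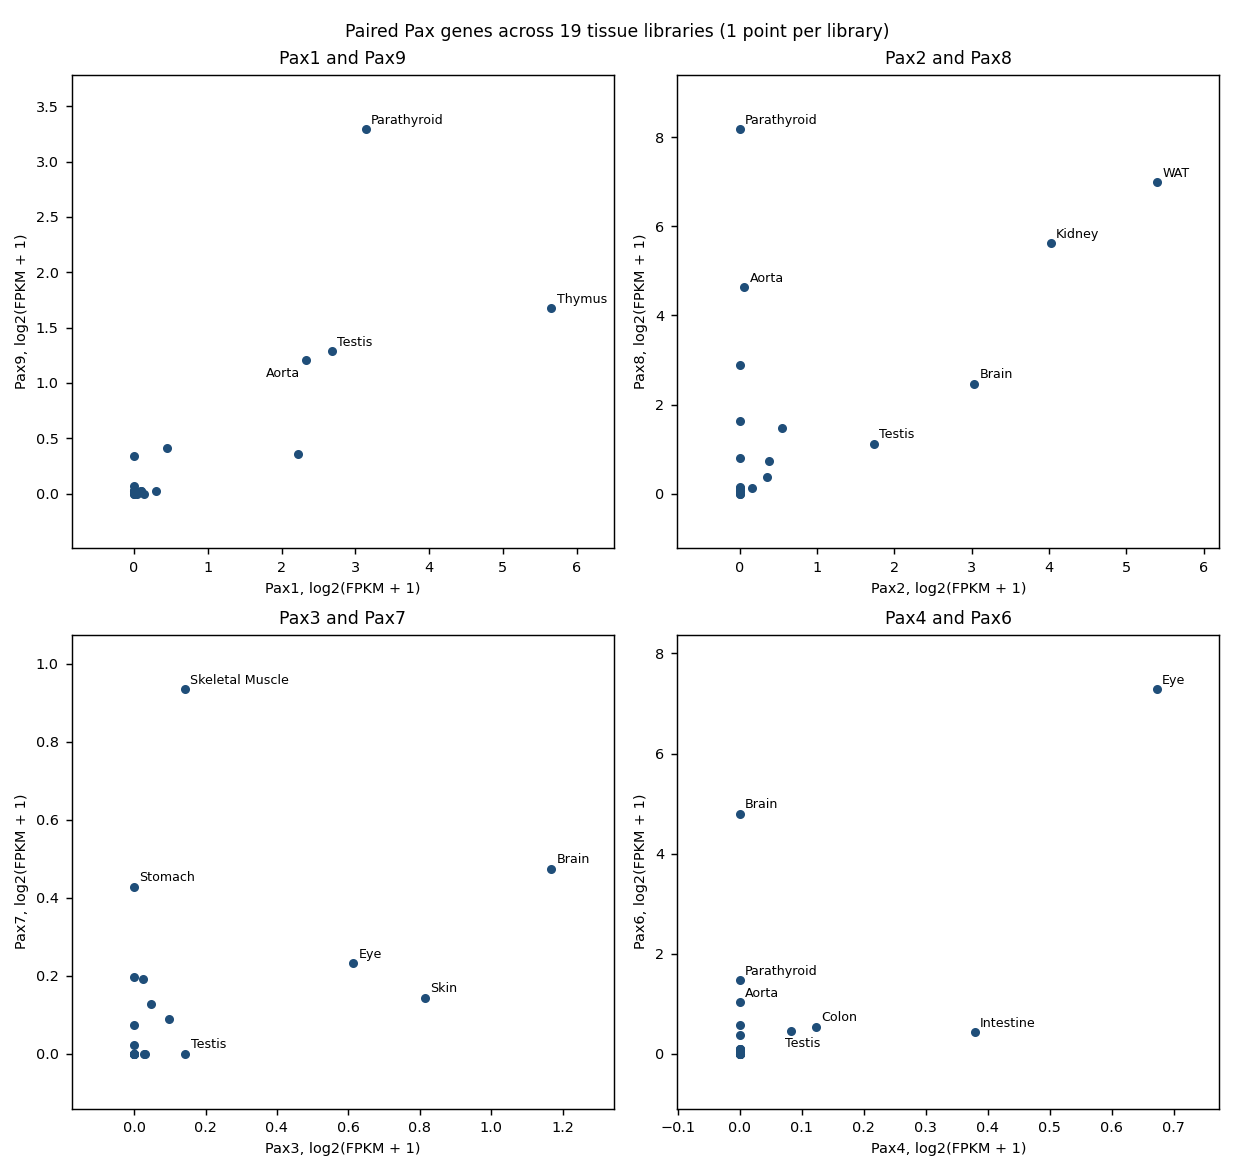
Levels of paired members in 19 tissue libraries as log2(FPKM + 1), 1 point per library, with the leading tissues named. Pax2 and Pax8 order testis, brain, kidney and WAT alike, from lowest to highest, while parathyroid and aorta lie on the Pax8 axis with Pax2 at 0 and 0.0436 FPKM.

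For each Pax gene at 1 FPKM or more, the 3 protein-coding genes of highest r over the 19 libraries were listed. Spearman's rank correlation was lower than r for the first gene of each Pax gene, and was 0.56 for Klk6, 0.67 for Otx2, 0.92 for Tnfrsf13c, 0.79 for Pou3f3, 0.63 for Chrna9, 0.56 for Myo3b and 0.71 for H2-M11. Pax6 had the highest value, with Otx2, a retina and forebrain factor, at 0.99 and the neuronal gap junction gene Gjd2 at 0.99, and without the eye library these were 0.98 and 0.96. Pax3 was most like the kallikrein gene Klk6 (0.98) and the cerebellar factor Zic1 (0.97). Pax5 was most like B cell genes, with the BAFF receptor Tnfrsf13c at 0.96, Fcmr, the IgM Fc receptor, at 0.95 and the octamer factor Pou2f2 at 0.94. Pax2 was most like the POU factor Pou3f3, at 0.94 with all libraries and 0.92 without WAT, then Folh1 and Hoxd3 at 0.92 each. Pou3f3 was at 26.9 FPKM in kidney, its highest library.

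The other members had looser matches. Pax1 was most like Chrna9, an acetylcholine receptor subunit, at 0.90, falling to 0.77 without thymus, followed by the recombinase gene Rag2 and the casein gene Csn2 at 0.85 each, or 0.62 and 0.66 without thymus. Pax8 was most like the myosin gene Myo3b (0.85), the Na,K-ATPase regulator Fxyd4 (0.85) and the potassium channel Kcnk1 (0.84), and these were 0.78, 0.75 and 0.79 without parathyroid. Pax9 was most like H2-M11 (0.88), Tex11 (0.86) and Dcpp3 (0.86), and these were 0.88, 0.61 and 0.62 without parathyroid. H2-M11 and Dcpp3 belong to families of near-identical copies, so their own levels are uncertain.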

How the data were processed

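The authors deposited FPKM for 13 tissues, the same 13 again by group, and raw counts for 6 more. RNA was taken with Trizol and cleaned on a column with DNase, per the labels' protocols. The submitters' processing notes name DESeq2 but no role for it. The aligner, counter, strand setting and build were not stated in the labels or headers. Coordinates are those deposited, identical to GENCODE M21 (GRCm38) for the 9 genes. In the group table, 12 columns equalled the first table and kidney was a mean of 3 libraries. A further FPKM table (6 columns) on another scale was not used.

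FPKM was read as reads divided by GENCODE mean transcript length and assigned reads. Whole reads were recovered, 99.993% or more of each total, and the deposited counts of the 6 tissues were converted with the same lengths. A gene was called when its highest FPKM was at least 1 and, after 0.1 was added, at least 4 times the next tissue. Intervals are exact Poisson for levels and exact binomial (Clopper-Pearson) for ratios, at 95%. A count of 0 is given a floor of 3 reads. Marker shares use list members highest in the source library at 5 FPKM or more. Named genes were the 9 Pax genes, list members, overlapping genes and the 3 most alike genes, plus sex-linked genes chosen after their values were seen. Some list members are not reported here by name. Members and lists were chosen with earlier results of these data known. The call rule was tested on simulated data. Whole proteins, translated from the longest coding sequence of each Pax gene, were aligned with MAFFT 7.526. The block of 141 bases is the ungapped run with the most residues identical in all 9. The software was numpy 2.4.6, scipy 1.17.1, pandas 2.3.3 and matplotlib 3.10.9 under Python 3.11.15.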

Additional observations from a re-analysis of the deposited data

How the results depend on the processing

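The number of Pax genes called depended most on the fold: of 3 in 19 tissues, a 2-fold rule gave 6 and an 8-fold rule 0, and of 2 in 13 tissues they gave 7 and 0. These follow from the rule itself, and the share of all genes that pass at those folds was not computed. Pseudocounts of 1 and 0.01, no level filter, median-of-ratios scaling and leaving out the eye, kidney or testis library gave 3 or 4 calls in 19 tissues and 2 or 3 in 13. A level of 5 FPKM, upper quartile scaling and leaving out parathyroid, WAT or aorta were run in 19 tissues alone (3 or 4 calls), and the deposited kidney mean in 13 alone (2 calls). Leaving out the eye, kidney and testis libraries was chosen after seeing the data. Some list counts moved as well. Without the eye library, 8 cerebellum genes were highest in brain and 7 passed the rule, against 7 and 6 with it. The cartilage and sclerotome list then had 5 passing, against 4. Without the kidney library, 4 thyroid, 4 parathyroid and 12 B lineage genes passed, against 5, 3 and 11 with it. Median-of-ratios scaling shifted libraries by −0.51 (thymus) to 0.84 (skeletal muscle) on the log2 scale. Under it and under upper quartile scaling each of the 9 genes was highest in the same tissue. Lower ranks did change: median-of-ratios scaling put testis next to the highest for Pax1 (4.66-fold) and Pax9 (3.65-fold), above parathyroid and thymus, and both scalings put stomach above brain for Pax7 (3.72-fold and 4.45-fold); the cause was not tested. The Pax4 ratio of eye to intestine fell to 1.04 under upper quartile scaling. Without WAT, Pax8 in parathyroid was 6.02-fold above kidney and passed the rule. Without parathyroid, Pax1 was 9.12-fold above testis and Pax9 led in thymus, 1.52-fold above testis. No paired analysis was possible because each tissue had 1 library. No spread between animals is known. Depth limits Pax4, Pax3 and Pax7, where a floor of 3 reads is 0.0459 to 0.267 FPKM.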

Other observations

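Known partners of Pax factors were broadly spread over the tissues. The list of 16 genes joined Eya and Dach genes and others of a network that often acts beside Pax genes with the Groucho corepressors Tle1 to Tle4 and the Pax-binding proteins Paxip1 and Paxbp1. All 16 reached 1 FPKM and 0 passed the 4-fold rule, against 28.3% of all genes, and their median log2 ratio was 0.31. Skeletal muscle led for 5 of them, among them Eya1 at 13.5 FPKM and Dach2 at 1.57 FPKM. Eya2 was highest in parathyroid at 40.0 FPKM and Eya4 in testis at 37.3 FPKM. Paxbp1, which links Pax3 and Pax7 to a histone methyltransferase, was highest in spleen at 83.9 FPKM.

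Further cell type lists led in other libraries. The squamous epithelium list had 5 of 10 members highest in eye and 5 passing the 4-fold rule, 4 of them in eye (median log2 ratio 2.08). Without the eye library 4 were highest in skin and 4 passed. Its keratin Krt13 was at 1333 FPKM in eye, a library with a single Pax9 read. The cartilage and sclerotome list had 4 of 10 members highest in bone and 4 passing the rule (1.29), only 2 of them in bone. Its Col2a1 was at 301 FPKM in bone and 31.998 in testis. The spermatogonia list had 2 of 8 passing the rule (0.88), and testis was the highest tissue of none of its 8 members. Exocrine pancreas genes were 6 of 8 past the rule (2.68), 4 of them in colon. Of the 8, 6 were highest in colon at low levels such as Ctrb1 at 20.97 FPKM, while Clps was at 49763 FPKM in stomach.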
